A study of Mus musculus with 12 samples.

Results

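The genes of this report encode the proteins of the mitochondrial ribosome, taken as every gene whose symbol starts with Mrpl or Mrps followed by a number. Of the 25171 loci counted in each heart, 78 were chosen this way. By symbol, 49 belong to the large subunit (Mrpl) and 29 to the small subunit (Mrps), and no pseudogene symbol had to be left out. All 78 are protein-coding genes of the nucleus, spread over 17 chromosomes of GRCm38.

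The mitochondrial ribosome makes the few proteins that the mitochondrial genome encodes, which are core subunits of the respiratory chain and of ATP synthase. Its RNAs come from the mitochondrial genome, but its proteins are made in the cytosol and imported, so both genomes have to supply it. The small subunit reads the messenger RNA, and the large subunit joins the amino acids and feeds the new chain to the inner membrane. The heart is rich in mitochondria, and inherited defects in several of these proteins cause cardiomyopathy in people.

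RNA of whole hearts was sequenced from 12 mice, with 3 in each of 4 groups. All mice carried NOTCH2NLC with 98 GGC repeats behind a loxP-flanked stop at the Rosa26 site. EIIa-tg mice also had EIIa-Cre, which is active from the early embryo and removes the stop throughout the body, EIIa-ctl littermates lacked this Cre, and both were examined at 30 days of age without any treatment. In the second model CreERT2 is made under the Myh6 promoter, which is active in cardiomyocytes, and has to be activated by tamoxifen. The labels give this transgenic genotype to both groups: Myh6-tg mice received 3 injections of tamoxifen at 75 mg per kg from day 60, Myh6-ctl mice received corn oil, and both were examined at 90 days. No strain or sex is given in the labels used here.

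The libraries held between 38343106 and 50969834 counts per heart. The members had between 267 and 10456 counts in every heart, so none was near the floor of 3 counts. Although the extraction text speaks of brain, the labels say heart, and the cardiomyocyte marker Myh6 was at 955 to 12420 CPM (counts scaled to library size) while the neuronal genes Snap25 and Syt1 stayed at or below 0.128 CPM. Sqstm1, which is known to gather with protein inclusions, was at 315 to 375 CPM in EIIa-ctl, 776 to 1380 in EIIa-tg, 387 to 776 in Myh6-ctl and 1938 to 2613 in Myh6-tg hearts. One check went against the labels. Esr1, which encodes the estrogen receptor whose hormone-binding part is built into CreERT2, was at 1067 to 2023 CPM in the hearts labelled Myh6-ctl but at 1.31 to 3.03 in those labelled Myh6-tg, close to the 0.364 to 1.24 of the EIIa hearts. The names Myh6-ctl and Myh6-tg below are therefore those of the labels, and the Cre allele, tamoxifen and the transgene cannot be told apart in their comparison.

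The 78 genes were expressed at widely different levels in control hearts. Levels are compared here as FPKM, which is scaled to transcript length. Mrpl42, a large subunit protein with no bacterial counterpart, was far above the rest with 320 ± 17.5 FPKM (SD, n = 3) in EIIa-ctl and 282 ± 15.8 in Myh6-ctl hearts. Mrpl30 followed with 110 ± 9.99 and 111 ± 13.2 FPKM, and Mrpl12, part of the stalk that recruits translation factors, had 97.5 ± 6.43 and 88.3 ± 8.97. In the small subunit Mrps23 was highest, with 80.3 ± 1.57 and 79.3 ± 9.44 FPKM. At the other end were Mrpl19 with 4.18 ± 0.398 and 3.68 ± 0.648 FPKM and Mrps26 with 4.84 ± 0.43 and 4.35 ± 0.718. Members of one complex therefore differed by well over an order of magnitude in RNA level, while the SD within a group was mostly small beside that range.

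**Figure D1:**
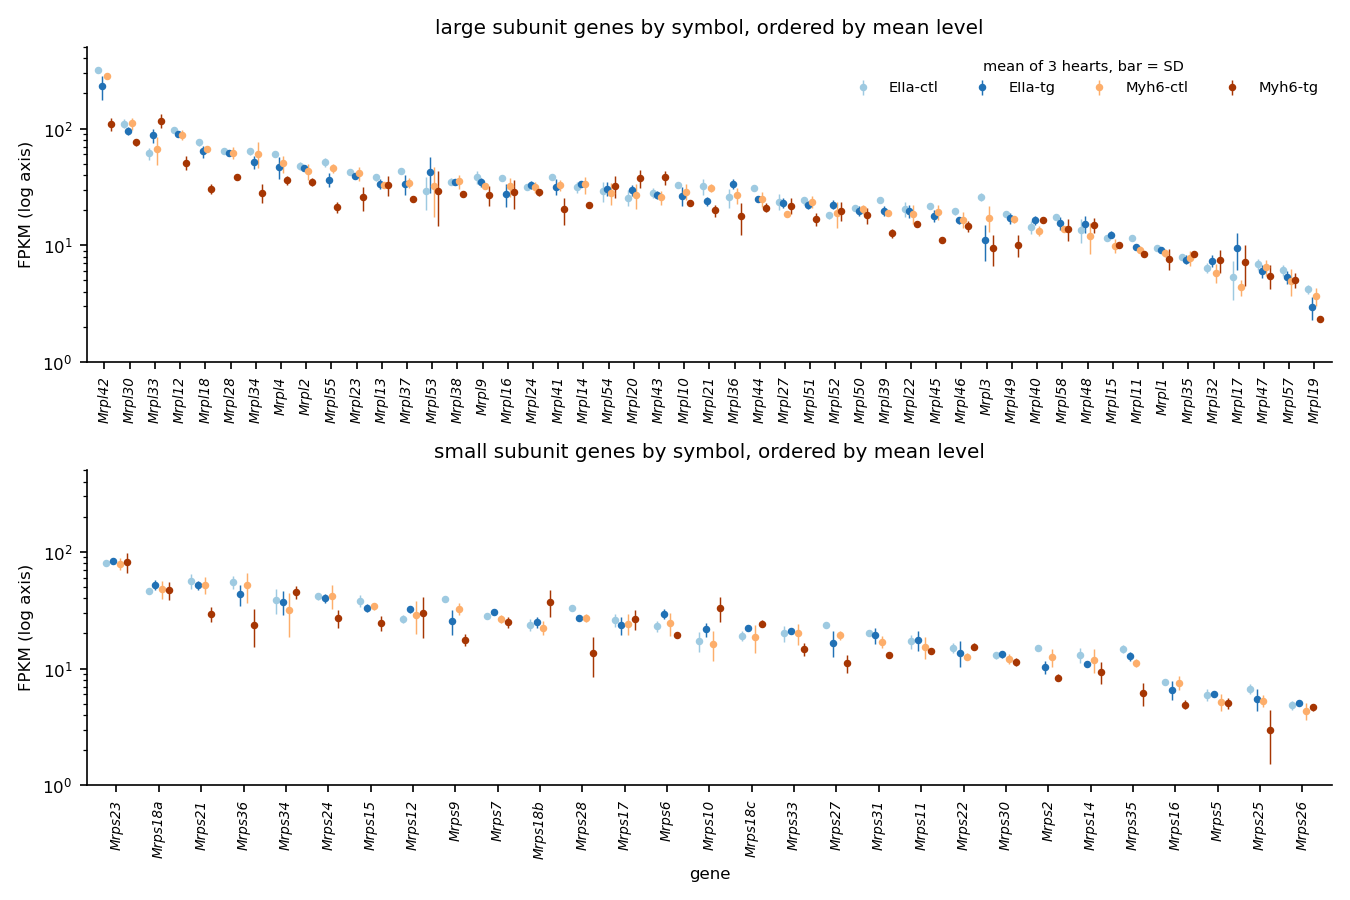
Level of each gene in FPKM on a log axis, as the mean of 3 hearts with SD bars, for the 4 groups, with large subunit genes above and small subunit genes below. Mrpl42 leads in every group except Myh6-tg, where it fell to 110 FPKM beside 117 for Mrpl33, and Mrpl19 is lowest.

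Summed over all 78 genes, the members made up 3117, 3337 and 3431 CPM in the EIIa-ctl hearts and 2854, 3182 and 2872 CPM in the EIIa-tg hearts. In the second model they made up 2944, 3249 and 2715 CPM in Myh6-ctl and 2332, 2459 and 2262 CPM in Myh6-tg hearts. The Myh6-tg hearts lay below all other hearts, whereas EIIa-tg replicate 2 overlapped with its controls. The total they are divided by also changed: the 13 protein genes of the mitochondrial genome took 31.8% to 38.3% of the counts in Myh6-ctl but 15.5% to 18.6% in Myh6-tg. With those 13 genes left out of the total, the members summed to 3982 to 5212 CPM in Myh6-ctl and 2676 to 3019 in Myh6-tg, against 4924 to 5234 in EIIa-ctl and 4018 to 4703 in EIIa-tg.

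Sums over cell type markers differed as well. In tissue RNA, fewer cells of a type and less RNA per cell cannot be told apart. All 8 cardiomyocyte markers of the list were detected, and their sum was 39462 to 45325 CPM in EIIa-ctl and 21181 to 36150 in EIIa-tg, 33262 to 36167 in Myh6-ctl and 12057 to 32585 in Myh6-tg. In edgeR 2 of the 8 fell in EIIa-tg and 5 in Myh6-tg, where Myh6 was lowest at -2.60 on the log2 scale. The 6 fibroblast markers summed to 1226 to 1925 CPM in EIIa-ctl and 2577 to 4149 in EIIa-tg, with 2 of 6 higher, and to 1645 to 2475 in Myh6-ctl and 2784 to 7909 in Myh6-tg, with 3 of 6 higher. The 5 macrophage markers gave 292 to 473 and 718 to 1013 CPM in EIIa-ctl and EIIa-tg, where all 5 rose, and 557 to 1151 and 822 to 1755 in Myh6-ctl and Myh6-tg, where none passed in edgeR and 2 were higher at an unadjusted p under 0.05. The 5 endothelial markers gave 780 to 939, 702 to 744, 441 to 1009 and 664 to 675 CPM in EIIa-ctl, EIIa-tg, Myh6-ctl and Myh6-tg, with 3 lower in EIIa-tg. Lymphocyte markers summed to 3.42 CPM or less, adipocyte markers to 4.24 or less and markers of neurons or glia to 13.6 to 48.6 in any heart. The part of these shifts in the changes below was not tested. Single hearts stood apart for these genes: EIIa-tg replicate 2 was closest to its controls, Myh6-ctl replicate 3 had low members together with 1151 CPM of macrophage markers, and Myh6-tg replicate 1 had 32585 CPM of cardiomyocyte markers, the highest of its group. Of that sum 12721 CPM were Actc1 and 10524 CPM Tnnt2, while Myh6, Pln, Myl2, Myl3 and Tnni3 lay below all Myh6-ctl hearts there.

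**Figure D2:**
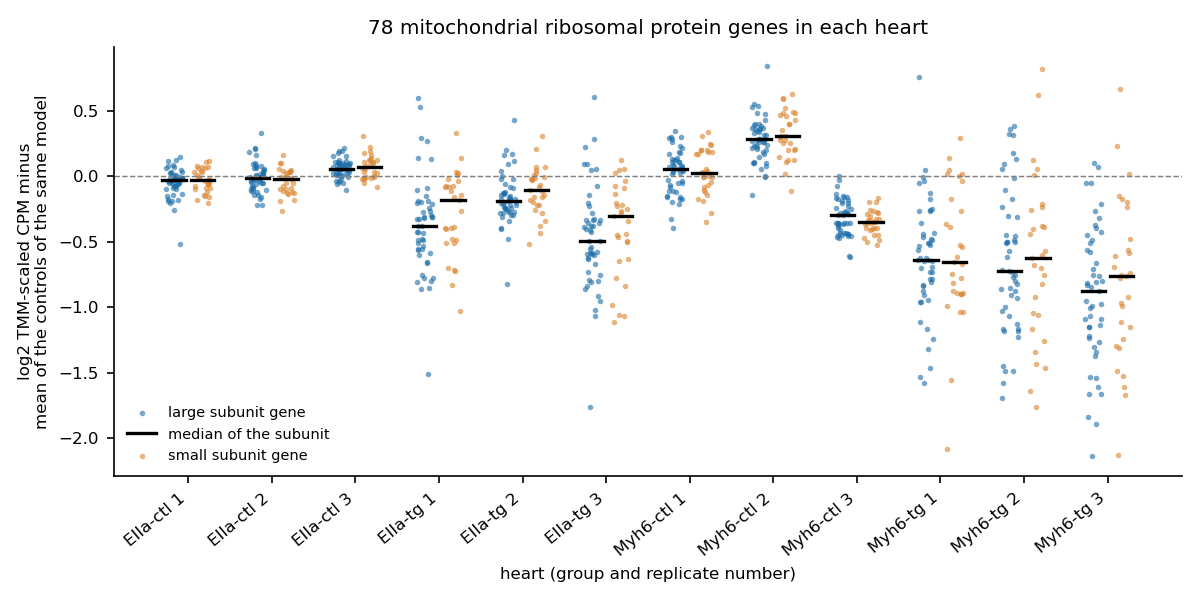
Each point is 1 gene in 1 heart, given as log2 of CPM scaled by the trimmed mean of M-values (TMM) minus the mean of the 3 controls of the same model, in blue for large and orange for small subunit genes, with black lines at the medians. All transgenic hearts have medians below 0, EIIa-tg replicate 2 the least, and among the controls Myh6-ctl replicate 3 lies below replicates 1 and 2.

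In EIIa-tg hearts the mitochondrial ribosomal protein genes were lower than in EIIa-ctl hearts, by a modest amount. Of the 78 genes, 21 fell at an adjusted p under 0.05 in edgeR and none rose, beside 8.3% of all 14908 genes tested that fell and 8.65% that rose. The median log2 fold change of the members was -0.30, a fold of 0.813, against 0.02 for all genes, and 65 of the 78 were negative. In 45 of the 78 every EIIa-tg heart lay below every EIIa-ctl heart, which was the case for 21.1% of all genes. None reached the limits of a DEG (adjusted p under 0.01 and a log2 change of at least 1). Nor did any other gene in edgeR (0.0% lower). DESeq2 made 1 member, Mrpl3, a lower DEG, beside 836 DEGs in either direction among the 16867 genes with an adjusted p. At an unadjusted p under 0.05 edgeR had 44 members lower and 2 higher, beside 17.4% and 17.5% of all genes. DESeq2 called 29 lower and 0 higher, beside 10.3% and 10.7%.

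By subunit, 16 of the 49 large subunit genes and 5 of the 29 small subunit genes fell in EIIa-tg hearts. Their median log2 fold changes were -0.32 and -0.21, so that the medians differed by -0.11. Taken per heart, the median log2 level of the large minus that of the small subunit genes was 0.06, 0.17 and 0.13 in EIIa-ctl and 0.30, 0.14 and 0.34 in EIIa-tg. These levels overlapped, and their group means lay in the opposite order to the difference of the median changes.

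The largest fall was in Mrpl3, the counterpart of a bacterial protein that lies beside the peptidyl transferase centre and a gene in which human mutations cause cardiomyopathy. It was at 105, 85.9 and 101 TMM-scaled CPM in EIIa-ctl hearts and at 34, 54.6 and 28.5 in EIIa-tg hearts. The groups were far apart, and the log2 fold change was -1.31 ± 0.222 (SE, edgeR adjusted p = 0.0166). Mrps9 was at 66.7, 58 and 65.9 against 31, 48.6 and 29.4 TMM-scaled CPM, a log2 change of -0.80 ± 0.187 (edgeR adjusted p = 0.0294). Mrps2 was at 35.3, 35.8 and 36.8 against 21.8, 25.1 and 17.3, a log2 change of -0.74 ± 0.141 (edgeR adjusted p = 0.0193). For each of these 3 genes EIIa-tg replicate 2 had the highest of the transgenic values.

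Further large subunit genes with a large fall were Mrpl55 at -0.71 ± 0.145 and Mrpl19 at -0.69 ± 0.185 on the log2 scale, followed by Mrpl42 at -0.66 ± 0.187, with edgeR adjusted p of 0.0222, 0.0405 and 0.0454. In the small subunit Mrps27, a protein of the mitochondrial translation machinery with RNA-binding repeats, fell by 0.68 on the log2 scale (SE 0.184). At the other end, Mrpl53 at 0.33 ± 0.275, Mrpl33 at 0.32 ± 0.126 and Mrpl17 at 0.26 ± 0.0915 had the highest log2 fold changes in the large subunit and Mrps6 at 0.16 ± 0.117 in the small one. None of these 4 passed the test, with edgeR adjusted p from 0.0793 to 0.43. For Mrpl33 and Mrpl17 all EIIa-tg hearts nevertheless lay above all EIIa-ctl hearts.

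The number of calls depended on which hearts were included, over all genes as well as in the members. Without EIIa-tg replicate 2 the count of lower members was 42, beside 13.8% of all genes, and without EIIa-ctl replicate 2 it was 10, beside 5.11%. It was 0 without EIIa-ctl replicate 1, EIIa-ctl replicate 3 or EIIa-tg replicate 1, where 0 genes in all were lower, and 0 without EIIa-tg replicate 3, where 29 were, while the median log2 change stayed between -0.40 and -0.23. On the FPKM scale limma called 4 of the 78 members lower, beside 4.25% of all genes, so that the lower share was near the background. It called 1 member higher, Mrpl33 with a log2 change of 0.50. There the median of all genes was 0.13 and the calls were 634 lower and 2237 higher, against 1238 and 1289 in edgeR on counts.

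In hearts labelled Myh6-tg the members were lower by a larger amount. Compared with hearts labelled Myh6-ctl, 35 of the 78 genes fell at an adjusted p under 0.05 in edgeR and none rose, beside 9.38% of all 15298 genes tested that fell and 8.96% that rose. No member was higher at an unadjusted p under 0.05 or in DESeq2 either, beside 17.2% and 10.3% of all genes. In the lower direction these were 51 members beside 16.8% and 40 members beside 11.6%. The median log2 fold change was -0.68, a fold of 0.622, against 0.03 for all genes, and 72 of 78 were negative. In 51 genes the groups did not overlap with Myh6-tg lower, beside 20.3% of all genes.

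The lower genes comprised 23 of 49 of the large and 12 of 29 of the small subunit, with median log2 fold changes of -0.67 and -0.76. The medians thus differed by 0.09. Per heart, the large minus small difference of median log2 levels was 0.04, 0.29 and 0.35 in Myh6-ctl and 0.27, 0.56 and 0.35 in Myh6-tg, which overlapped. The sign of the difference of median changes turned without Myh6-ctl replicate 1 (just below 0), Myh6-ctl replicate 2 (-0.05), Myh6-tg replicate 1 (-0.09) or Myh6-tg replicate 2 (-0.02). Moving Mrps18a and Mrps30 to the large subunit, where these proteins sit in the ribosome, and leaving out Mrps36 gave differences of 0.10 for the Myh6 and -0.09 for the EIIa model. Mrps18a was at -0.02 and -0.44 and Mrps30 at -0.17 and -0.49 in EIIa-tg and Myh6-tg, and neither passed the test.

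DEGs were 4 of the 78, all lower and all in the large subunit, beside 2.05% lower DEGs among all genes. With the replicate number as a block, 11 members were DEGs, and DEGs over all genes went from 608 to 969. Mrpl42, the most abundant member, was at 204, 242 and 185 TMM-scaled CPM in Myh6-ctl and at 72, 64.6 and 47.4 in Myh6-tg hearts, a log2 change of -1.76 ± 0.22 (edgeR adjusted p = 0.00411). Mrpl18 was at 96, 106 and 74.3 against 30.4, 33.3 and 29.9, a log2 change of -1.54 ± 0.185 (edgeR adjusted p = 0.0037). For both genes every Myh6-tg heart lay far below every Myh6-ctl heart. The exons of Mrpl18 share 141 bases with Tcp1 on the other strand, and whether counting used strand is not given in the sources used here.

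Mrpl55, another protein found only in the mitochondrial ribosome, was at 46.5, 51.6 and 33.4 TMM-scaled CPM in Myh6-ctl and at 18.2, 15.3 and 12 in Myh6-tg hearts, a log2 change of -1.51 ± 0.235 (edgeR adjusted p = 0.00764). Mrpl45, which fastens the large subunit to the inner membrane where the new chain leaves, was at 64.2, 52.7 and 42.9 against 23.3, 23.4 and 21.3, a log2 change of -1.21 ± 0.191 (edgeR adjusted p = 0.00795). No heart of one group came close to the other for either gene. The count of 4 became 0 without any one of Myh6-ctl replicates 1, 2 and 3 or Myh6-tg replicates 2 and 3, and 17 without Myh6-tg replicate 1. The 35 lower genes became 6 without Myh6-ctl replicate 1, beside 2.58% of all genes, 6 without Myh6-tg replicate 2, beside 3.09%, 8 without Myh6-tg replicate 3, beside 3.0%, and 13 without Myh6-ctl replicate 2, beside 5.73%. Calls over all genes thus dropped in the same fits, and DEGs over all genes went from 608 to between 26 and 77 in the 5 fits with no member DEG. Without Myh6-tg replicate 1 the DEGs over all genes rose to 1690.

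In the small subunit the lowest log2 fold changes in Myh6-tg were in Mrps36, Mrps28 and Mrps9. Mrps36 carries a ribosomal symbol but its protein is a part of the 2-oxoglutarate dehydrogenase complex of the citric acid cycle. It was at 35.6, 58.7 and 28 TMM-scaled CPM in Myh6-ctl and at 20.8, 12.5 and 8.89 in Myh6-tg hearts, a log2 change of -1.52 ± 0.378 (edgeR adjusted p = 0.0309). Mrps28 was at 23.8, 28.8 and 19.7 against 5.63, 10.6 and 10.1, a log2 change of -1.44 ± 0.282 (edgeR adjusted p = 0.015). Mrps9 was at 61.4, 55.8 and 40.6 against 26.1, 18.8 and 18.5, a log2 change of -1.29 ± 0.226 (edgeR adjusted p = 0.0109). In the large subunit Mrpl34 at -1.54 ± 0.316 and Mrpl12 at -1.19 ± 0.243 also fell, with edgeR adjusted p of 0.0169 and 0.0165.

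In Myh6-tg hearts 6 members had a positive log2 fold change, and none of them passed the edgeR test. Mrps10 was at 16.1, 27.3 and 13.7 TMM-scaled CPM in Myh6-ctl and at 22.3, 32.1 and 28.9 in Myh6-tg hearts, a log2 change of 0.57 ± 0.286 (edgeR adjusted p = 0.206). Mrpl33 was at 28.4, 51.5 and 30.9 against 60, 45.7 and 38.1, a log2 change of 0.40 ± 0.277 (edgeR adjusted p = 0.353). The groups overlapped for both genes because Myh6-ctl replicate 2 was high. Mrps18b at 0.30, Mrpl43 at 0.15, Mrpl20 at 0.05 and Mrps34 at 0.02 completed the 6. On the FPKM scale, where the median of all genes was 0.27, limma called 21 members lower, beside 6.22% of all genes. It called Mrps10 and Mrpl33 higher, with log2 changes of 0.97 and 0.82. The calls over all genes were then 951 lower and 3234 higher, against 1435 and 1370 in edgeR on counts.

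**Figure D3:**
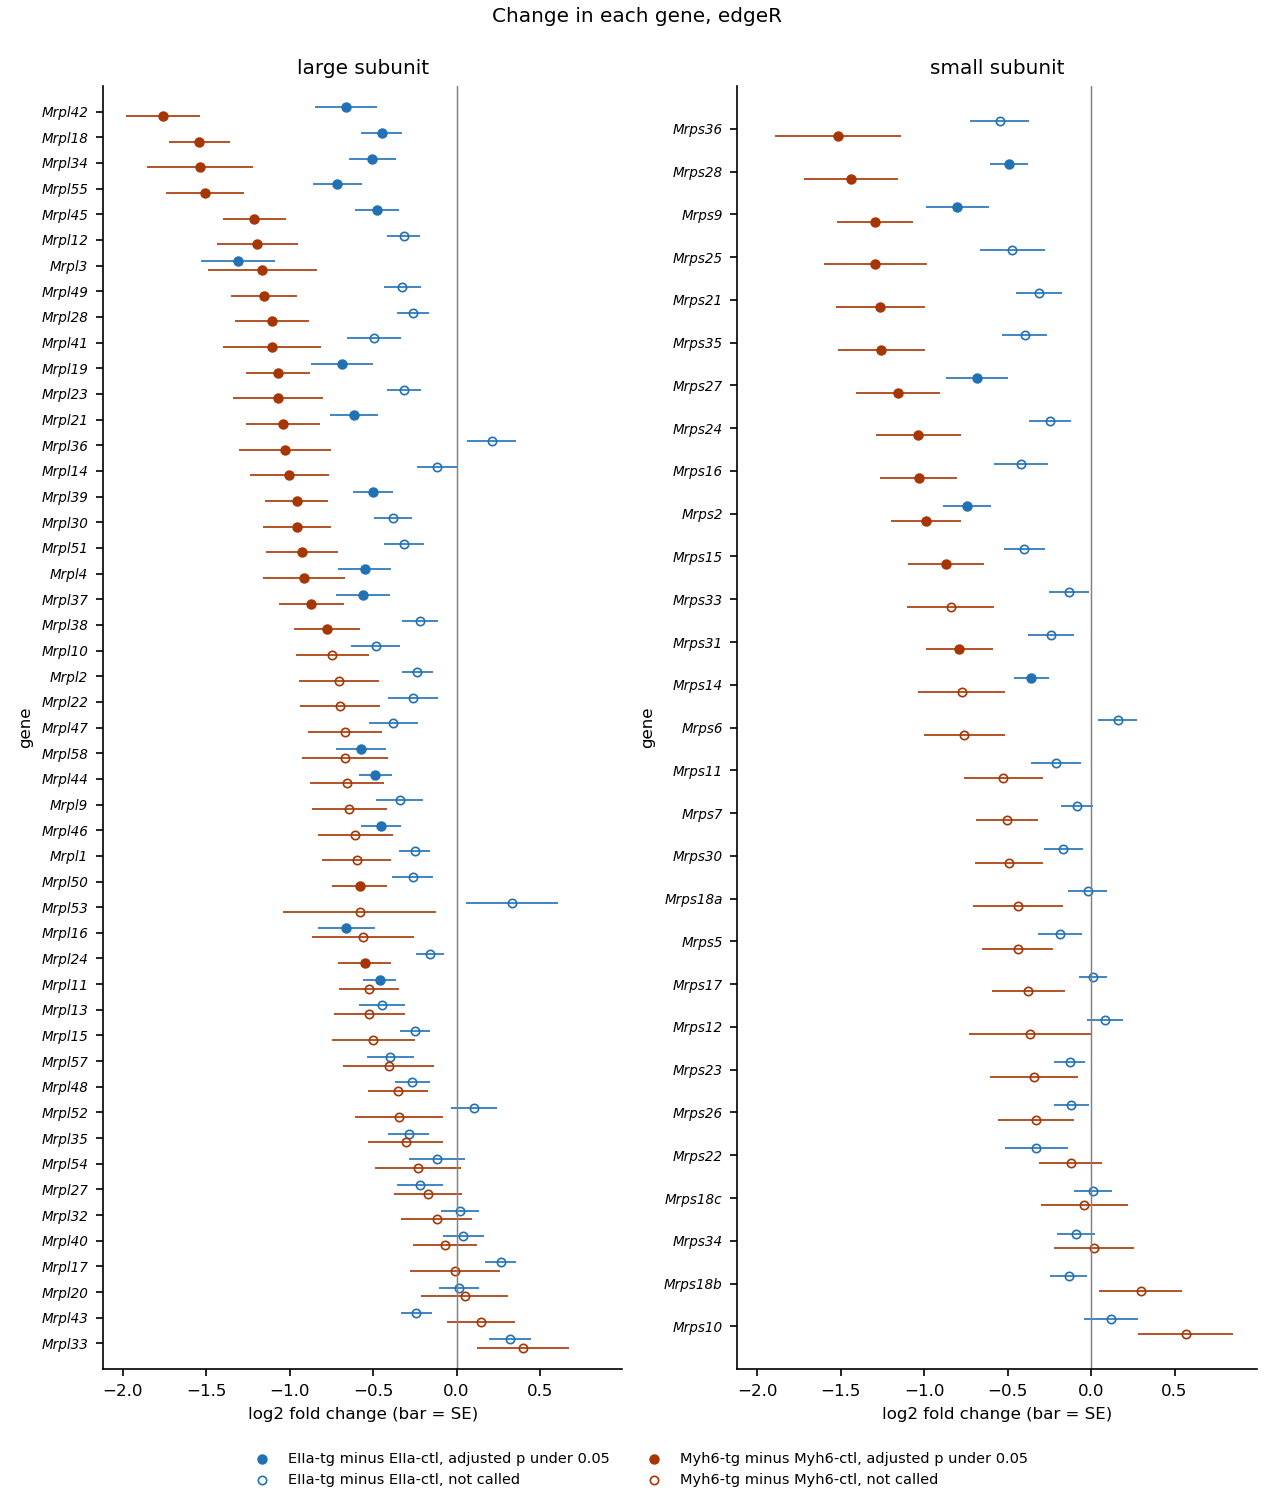
Log2 fold change of each gene with its SE from edgeR, in blue for EIIa-tg minus EIIa-ctl and in brown for Myh6-tg minus Myh6-ctl, with filled points for an adjusted p under 0.05, large subunit left and small subunit right, ordered by the Myh6 change. Mrpl42 is at the top with -1.76 and Mrpl33 and Mrps10 are at the bottom with positive changes.

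The level of the large against the small subunit is also seen per heart. Large subunit genes held 70.5% to 70.8% of all member FPKM in EIIa-ctl, 68.7% to 70.0% in EIIa-tg, 69.4% to 71.7% in Myh6-ctl and 65.9% to 67.3% in Myh6-tg hearts, and neither model's groups overlapped. Mrpl42 alone took 16.5% to 17.8% of the large subunit FPKM in EIIa-ctl and 11.9% to 16.3% in EIIa-tg, and 15.8% to 18.1% in Myh6-ctl and 8.04% to 9.29% in Myh6-tg. Without Mrpl42 the shares were 66.3% to 66.8% and 65.5% to 66.2% in the EIIa groups and 65.6% to 67.4% and 63.9% to 65.2% in the Myh6 groups, still without overlap but closer.

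Genes were also grouped by whether bacteria have a counterpart of the protein. In EIIa-tg hearts 8 of 29 large subunit genes with a counterpart and 8 of 20 without one fell, with median log2 changes of -0.32 and -0.36. In the small subunit 4 of 16 and 1 of 10 fell. Mrps18a, Mrps30 and Mrps36 were left out of the small subunit here, and Mrps18b was counted as without and Mrps18c as with a counterpart. In Myh6-tg hearts the counts were 13 of 29 and 10 of 20 in the large subunit and 7 of 16 and 4 of 10 in the small subunit. A chosen list of 10 members known from inherited human disease included 5 that fell in each model. Beside this, 21 and 35 of all 78 members and 8.3% and 9.38% of all genes fell in EIIa-tg and Myh6-tg. Mrpl3, Mrps2 and Mrps28 fell in both models. By the threshold, Mrpl44 and Mrps14 fell in EIIa-tg only and Mrpl12 and Mrps16 in Myh6-tg only.

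Counts of genes whose exons overlap those of another gene can mix the 2. This was so for 33 members, 23 of them with a partner that is in the count table. Among the 45 members without any overlap, 13 fell in EIIa-tg and 22 in Myh6-tg hearts, with median log2 changes of -0.31 and -0.77. Over all 78 members 21 and 35 fell, and 8.3% and 9.38% of all genes did. Large overlaps were found for Mrps25, whose exons share 4590 of 6576 bases with Nr2c2 on the other strand, and for Mrpl53 and Mrps34. Mrpl53 overlaps Gm42688 on the same strand and Ccdc142os on the other, and Mrps34 overlaps Nme3 on the same strand and Mapk8ip3 on the other. Added over these partners, the overlap was 710 bases beside 790 exonic bases in Mrpl53 and 2072 beside 2064 in Mrps34. Bases shared with several partners are counted for each of them. Among smaller overlaps, Mrpl19 shares 1962 of 5450 bases with Gcfc2 and Mrpl43 shares 507 of 1520 with Twnk, both on the other strand.

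The 2 models share no heart and could be set side by side. Of the 78 genes, 62 were negative in both comparisons and 3 were positive in both, namely Mrpl33, Mrps10 and Mrpl20. The 15 that fell in both were Mrpl3, Mrpl4, Mrpl18, Mrpl19, Mrpl21, Mrpl34, Mrpl37, Mrpl39, Mrpl42, Mrpl45 and Mrpl55 of the large and Mrps2, Mrps9, Mrps27 and Mrps28 of the small subunit, and 3.54% of the 14649 genes tested in both models did so. Across the genes the changes had a Pearson's r of 0.629 and a Spearman's rho of 0.673, given as a description because genes of a library are not independent. In 68 of 78 genes the Myh6 change was the more negative one. The model difference had a median of -0.40 on the log2 scale, against -0.04 for all genes.

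Only Mrpl18 passed the test of that difference in all 12 hearts, which 2.27% of all 15929 genes did in the lower and 1.65% in the higher direction. It had fallen by 0.45 on the log2 scale in EIIa-tg (SE 0.123, from 102, 104 and 112 to 71.8, 91.8 and 68.6 TMM-scaled CPM), and the difference was -1.10 ± 0.212 (edgeR adjusted p = 0.0157). No member passed in the higher direction, none did at an unadjusted p under 0.05 or in DESeq2, beside 8.59% and 3.61% of all genes, and no member was a DEG of the difference, beside 0.339% of genes that were lower DEGs. At an unadjusted p under 0.05 edgeR had 22 members with a lower difference, beside 10.8% of all genes, and DESeq2 called 8, beside 4.91%. Without Myh6-ctl replicate 3 edgeR called 9 members, beside 2.32%, and without Myh6-tg replicate 1 it called 11, beside 6.62%. Mrpl36, which was at 0.21 ± 0.146 in EIIa-tg but fell by 1.03 on the log2 scale in Myh6-tg, had a difference of -1.24 ± 0.323 (edgeR adjusted p = 0.0551). The difference for Mrpl3, which fell by 1.31 and 1.16 on the log2 scale, was 0.15 ± 0.426. Mrpl18 lost its call without EIIa-ctl replicate 1, with an edgeR adjusted p = 0.052, and over all alternatives its adjusted p ranged from 0.000316 to 0.052.

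**Figure D4:**
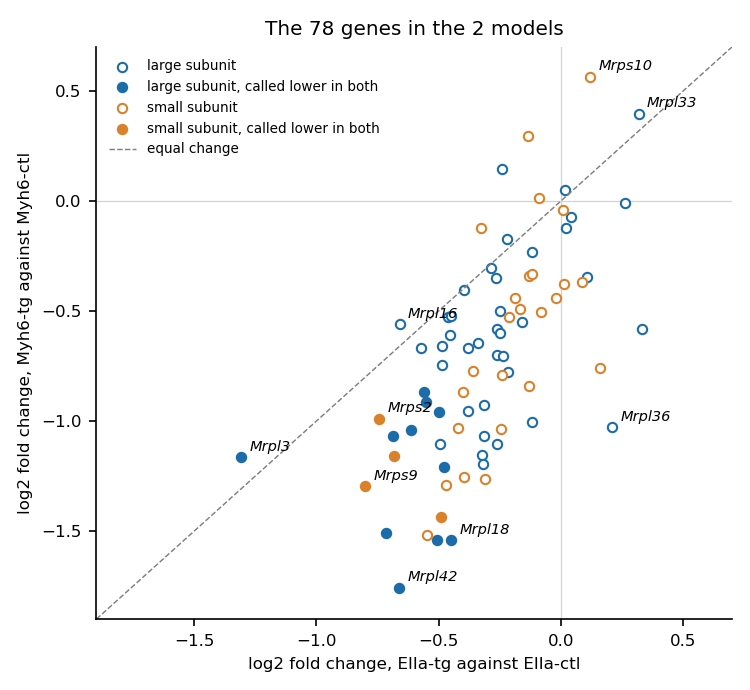
Log2 fold change of each gene in the Myh6 model (vertical) against the EIIa model (horizontal), in blue for large and orange for small subunit genes, with filled points for the 15 genes called lower in both and a dashed line at equal change. Most points, 68 of 78, lie below the line, and Mrpl3 is the leftmost point close to it.

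The control hearts of the models were compared as a check of what age, Cre line and injection bring, which cannot be told apart. None of the 78 genes differed between Myh6-ctl and EIIa-ctl in edgeR or DESeq2, but hardly any gene did in edgeR, with 0.0133% lower, 0.02% higher and 0.0133% lower DEGs among 14990. At an unadjusted p under 0.05, 4 members were lower and none higher, beside 4.89% and 6.45% of all genes, so that the lower share was near the background. DESeq2 called 0.835% of all genes lower and 1.79% higher. The median log2 change was -0.12, and it was 0.02 without Myh6-ctl replicate 3. Mrpl3 again had the lowest value, at -0.56 ± 0.186 (edgeR adjusted p = 0.308).

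Per gene after TMM scaling, other genes of mitochondrial translation moved in the same direction. The counts below stand beside 8.3% and 9.38% of all genes that fell in EIIa-tg and Myh6-tg. Of 14 translation factors, 8 fell in EIIa-tg and 8 in Myh6-tg, with median log2 changes of -0.48 and -0.98. Pdf, which removes the formyl group from new chains, was at -2.33 ± 0.278 in Myh6-tg, and Taco1, which is needed to translate a cytochrome oxidase subunit, was at -1.18 ± 0.206 in EIIa-tg. Of 20 genes for charging mitochondrial tRNAs, 11 fell in each model, with median folds of 0.682 and 0.499, and Cars2 fell furthest at -1.18 and -1.92 on the log2 scale. Of 24 assembly factors of the ribosome 6 and 8 fell, with medians of -0.36 and -0.76, and of 15 genes of mitochondrial transcription and RNA handling 7 fell in each, with medians of -0.31 and -0.65. None of these 4 lists held a gene that rose in edgeR, or that was higher at an unadjusted p under 0.05. Sums of CPM without TMM scaling differed from this for some lists in the Myh6 model. Genes for charging tRNAs summed to 438 to 532 CPM in Myh6-ctl and 479 to 501 in Myh6-tg, and assembly factors to 343 to 377 and 328 to 355. Translation factors summed to 521 to 635 and 335 to 430 CPM, and genes of transcription and RNA handling to 577 to 639 and 418 to 503. All 4 sums were lower in every EIIa-tg heart than in every EIIa-ctl heart.

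Mitochondrial ribosomal proteins with other symbols were 5 tested genes, of which Dap3 and Ptcd3 fell in EIIa-tg and Ptcd3 alone in Myh6-tg, at -1.55 ± 0.217 on the log2 scale. The nuclear genes of the respiratory chain have products that assemble with those that the mitochondrial ribosome makes. Of these genes 13 of 83 were lower in EIIa-tg and 51 of 83 in Myh6-tg, beside 8.3% and 9.38% of all genes. Their median log2 changes were -0.30 and -1.10. In the EIIa model their median was thus the same as that of the members, and in the Myh6 model it was lower.

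Genes for the ribosome of the cytosol had other values. Of its 80 protein genes tested, none fell and 10 rose in EIIa-tg hearts, beside 8.3% and 8.65% of all genes. Their median log2 change was 0.32. In Myh6-tg hearts 1 fell and none rose, beside 9.38% and 8.96% of all genes, with a median of 0.05. The single gene that fell was Rpl3l, a form of ribosomal protein L3 made in heart and skeletal muscle, at -4.32 ± 0.361 (edgeR adjusted p = 0.00136). At an unadjusted p under 0.05 edgeR had 40 of the 80 higher and 1 lower in EIIa-tg, which was also Rpl3l. In Myh6-tg it had 0 higher and 1 lower. Of all genes, 17.5% were higher in EIIa-tg and 17.2% in Myh6-tg by this limit.

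**Figure D5:**
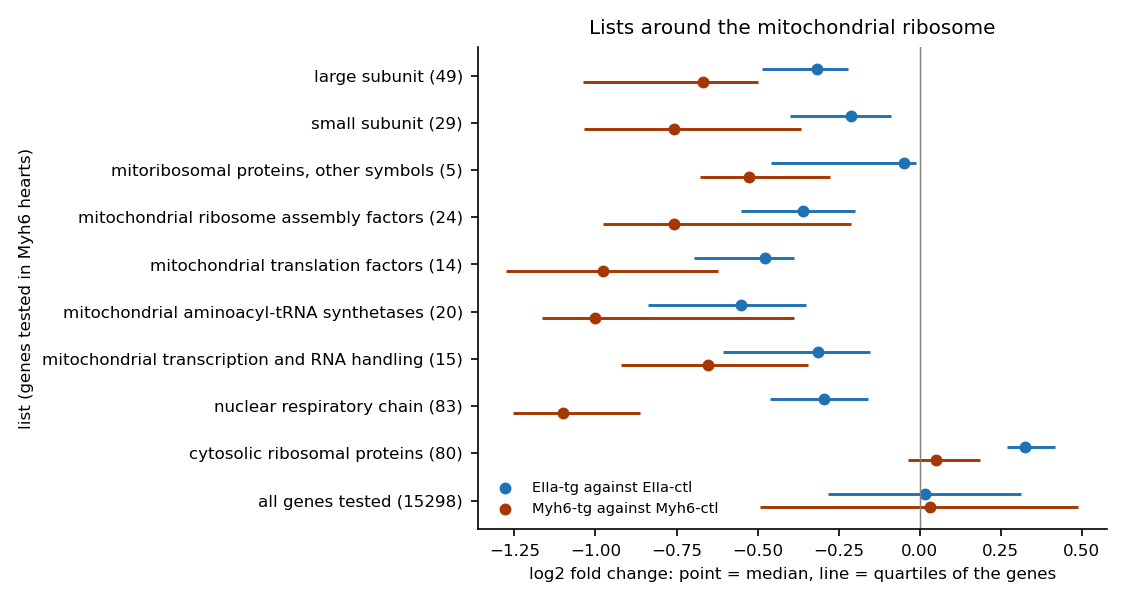
Median (point) and quartiles (line) of the log2 fold changes of each list, in blue for EIIa-tg against EIIa-ctl and in brown for Myh6-tg against Myh6-ctl, with the number of genes tested beside the name. All mitochondrial lists have medians below 0 in both models, while cytosolic ribosomal proteins lie at 0.32 and 0.05 and all genes near 0.

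Promoter windows from 250 bases before to 50 bases after the start of the gene were taken from RefSeq (GRCm38.p6) and found for 69 of the 78 members. Each was searched on both strands for letters that nuclear regulators of mitochondrial genes are known to bind. The NRF1 letters GCGCANGCG were in 23.2% of member windows and in 14.2% of windows of the genes tested in Myh6 hearts. The ETS and GABP letters CCGGAAG were in 37.7% and 18.5%, and the YY1 letters AAGATGGC in 17.4% and 4.83%. At least 1 of these 3 was in 63.8% of member windows and 32.4% of tested genes. Members that fell in Myh6-tg and members that were not called held such a match in nearly equal shares, 63.3% of 30 and 64.1% of 39. Single motifs were less even: the ETS and GABP letters were in 26.7% of the first and 46.2% of the second. The letters AAGGTCA, bound by ESRRA, were in 5.8% of members and 3.99% of tested genes, all 4 of them among the 30 that fell. TATAAA was in 7.25% and 9.21%, and CCAAT in 39.1% and 42.5%, in 15 of the 30 members that fell and 12 of the 39 not called. These shares rest on few genes and were not tested.

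The 100 bases just before the start are shown for 4 genes that fell in both models, to show how different such promoters are. Capitals mark an NRF1, ETS or YY1 match on either strand, and each is written 5′ to 3′ on the strand of the gene. Mrpl45 is at chr11:97315616-97315715 on the plus strand, Mrpl34 at chr8:71464826-71464925 on the plus strand, Mrps27 at chr13:99344686-99344785 on the plus strand and Mrpl55 at chr11:59202386-59202485 on the plus strand of GRCm38.p6.
Mrpl45: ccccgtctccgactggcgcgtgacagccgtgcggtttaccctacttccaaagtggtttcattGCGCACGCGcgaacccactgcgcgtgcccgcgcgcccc
Mrpl34: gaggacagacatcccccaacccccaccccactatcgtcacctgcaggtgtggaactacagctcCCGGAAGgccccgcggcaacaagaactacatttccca
Mrps27: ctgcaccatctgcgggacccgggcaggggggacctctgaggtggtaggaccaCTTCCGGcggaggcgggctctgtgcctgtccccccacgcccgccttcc
Mrpl55: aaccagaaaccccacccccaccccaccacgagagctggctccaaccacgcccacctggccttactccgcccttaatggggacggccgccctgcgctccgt
Mrpl45 has an NRF1 match, Mrpl34 an ETS match and Mrps27 an ETS match on the other strand within these 100 bases, while the stretch of Mrpl55 has none of the 3. A match is a description of letters and not a measured binding site.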

How the data were processed

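Hearts of 12 mice were analysed, 3 in each group, taken as separate animals because the labels number them as biological replicates. The authors deposited counts, which are whole and not normalized, and FPKM values, scaled by the authors to transcript length and library size. The submitters' processing notes name HISAT2 2.0.4 and StringTie 2.2.1 and the builds GRCm39 and mm10. The paper's methods give GRCm38. The counting program, its strand setting and the annotation release are not given in the sources used here. The tables also hold 3135 loci named NewGene. No per-sample column was left unused (0 columns). The genotype names of EIIa-tg replicates 2 and 3 differ from that of replicate 1, and titles decided their group.

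Low genes were removed with filterByExpr in edgeR 4.0.16 (R 4.3.3). After TMM scaling, glmQLFit and glmQLFTest were applied to the 6 hearts of a comparison, with Benjamini-Hochberg adjustment over all genes tested. The difference between models used all 12 hearts. The SE is the log2 fold change divided by the square root of F. Replicate numbers were checked for pairing by the correlation of deviations from group means. Myh6-ctl and Myh6-tg hearts of the same number had correlations of 0.281, 0.184 and 0.17, and EIIa hearts had 0.0482, -0.0725 and -0.0554. Pairs of different number had -0.239 to 0.047 in the Myh6 model and -0.0827 to 0.138 in the EIIa model. Every Myh6 pair of the same number thus lay above every Myh6 pair of different number, and the reason was not tested. Between EIIa-ctl and Myh6-ctl, which are different models, the correlations of the same number were 0.121, 0.0589 and -0.0295. The main fit was unpaired in every comparison, and replicate numbers entered only in the replicate block. Alternatives used DESeq2 1.42.0, RLE factors, other filters, limma 3.58.1 on log2(FPKM + 1) and log2(FPKM + 0.1), all 12 hearts, removal of mt- or NewGene loci, a replicate block and each heart left out. The removal of NewGene loci was chosen after seeing the data. The scripts were tested on simulated data.

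Positions and exon overlaps are from GENCODE M21. Depth was 38343106 to 50969834 counts per heart, so that 3 counts are 0.0589 to 0.0782 CPM. These floors reflect only the error of counting. The members and lists were chosen with earlier results of these data known. Genes were named by a rule. It took DEGs, the 3 lowest and 3 highest log2 fold changes of each subunit, and the highest and lowest FPKM. It also took members whose symbol and place differ, a chosen list of 10 members known from human disease, and the extremes of each list of other genes. Other genes named were chosen after their values were seen.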

Additional observations from a re-analysis of the deposited data

Results flagged for a closer look

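The change of Mrpl18 differed between the models: the log2 fold change in Myh6-tg minus that in EIIa-tg was -1.10 in the test of the difference over all 12 hearts. Of the 78 genes it was the only one for which this test passed the adjusted threshold in edgeR, with an adjusted p of 0.0157. Its value ranged from -1.24 to -0.84 over the alternatives. Mrpl18 shares 141 exonic bases with Tcp1, and the part of that overlap in the difference was not tested.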

How the results depend on the processing

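Only 6 hearts per comparison limit every count given here. Medians were steadier than calls. The median log2 change of the members ranged over the hearts left out in turn from -0.40 to -0.23 in the EIIa comparison, from -0.86 to -0.55 in the Myh6 comparison, from -0.29 to 0.019 between controls and from -0.54 to -0.28 for the difference between models. Lower members ranged from 0 to 42 in EIIa, from 6 to 37 in Myh6 and from 0 to 11 for the difference. Of all genes, 0.0% to 13.8%, 2.58% to 13.9% and 1.01% to 6.62% were lower in these fits. Member DEGs ranged from 0 to 2 in EIIa and from 0 to 17 in Myh6, and DEGs over all genes from 0 to 921 and from 26 to 1690. The large minus small difference of medians ranged from -0.16 to -0.08 in EIIa, from -0.091 to 0.095 in Myh6, from -0.10 to 0.012 between controls and from 0.01 to 0.16 for the difference between models.

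On the FPKM scale with pseudocounts of 1 and 0.1 limma called 4.25% and 4.29% of all genes lower in EIIa and 6.22% and 6.33% in Myh6. Beside this it gave 4 lower and 1 higher member in EIIa and 21 lower and 2 higher in Myh6 under both. The median log2 change there was -0.27 and -0.28 in Myh6 and -0.14 and -0.15 for the difference, but the median of all genes was at 0.27 and 0.40 in Myh6, so that members lay 0.53 and 0.68 below it, against 0.72 in edgeR on counts. In EIIa the members lay 0.25 and 0.32 below the median of all genes. DESeq2 gave 25 member DEGs in Myh6, 1 in EIIa and 2 for the difference. Over all genes it gave 2135 of 17714, 836 of 16867 and 616 of 16360 with an adjusted p. It called 8 members lower for the difference, beside 4.91% of all genes. Without a filter on low counts EIIa had 1 member DEG, beside 344 DEGs among all 19490 genes. With all 12 hearts in one fit EIIa had 0 lower members, beside 0.32% of all genes. Myh6 then had 23 member DEGs, beside 1857 DEGs among all 15929 genes. Removing the mt- genes gave 3 lower members for the difference, beside 2.35% of all genes.

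With the replicate block 0 members were lower in EIIa, where only 1 gene in all was called. In Myh6 11 members were DEGs, beside 969 DEGs among all 15298 genes. Between models 2 members had a lower difference, beside 2.36% of all genes. With the block, 38 members were lower in Myh6, against 35 in the main fit, beside 11.2% and 9.38% of all genes. The members called higher stayed at 0 in both models. EIIa replicates share only a number. For the named genes, 1641 values kept their side of the threshold, 112 lost the call and 31 gained one. Of the values called in the main fit, 0 reversed in direction. A value called neither in the main fit nor in the alternative was counted as kept even where its direction changed. Apart from what is stated here the causes were not tested.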

Other observations

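The length that ties a gene's count to its FPKM, taken as CPM divided by FPKM in kb, was nearly constant across hearts for most members: in 67 of 78 the highest heart was less than 1.1 times the lowest. It varied by more than 1.2 times in 8, most of all in Mrpl17, where it was 6.94, 4.57 and 7.42 kb in EIIa-ctl, 6.7, 3.08 and 5.48 in EIIa-tg, 7.35, 7.45 and 7.37 in Myh6-ctl and 6.88, 7.09 and 4.67 in Myh6-tg hearts. All Myh6-tg hearts were below all Myh6-ctl hearts for Mrpl17. Mrpl58, which frees stalled ribosomes, was at 1.8, 2 and 1.98 kb in EIIa-ctl and 1.58, 1.74 and 1.68 in EIIa-tg, and Mrpl15 was at 4.11, 4.06 and 4.17 and 3.74, 3.84 and 3.48, without overlap in either. Fold changes in FPKM and in counts therefore differ for these genes, and which transcripts lie behind this was not tested.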
